A study of Saccharomyces cerevisiae with 10 samples.

Results

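Transcript levels of the yeast Saccharomyces cerevisiae after 18 h of a sugar feed were compared with those after 9 h of the same feed, using the 4 arrays labelled as sugar medium (2 biological replicates at each time) of 10 arrays in all. The genes were the S. cerevisiae probe sets that name a single open reading frame, with the brightest probe set taken where a gene had several, which gave 5654 genes, all of them tested. Every culture was of strain TMB3500 and began as an aerobic batch on glucose at 30 °C and pH 5. The sugar cultures were then fed glucose, mannose and xylose at concentrations close to those of a spruce hydrolysate, and the other 3 groups of 2 arrays were the start of the feed (0 h) and the hydrolysate feed at 9 h and 18 h, the hydrolysate being wood sugar liquor that was not detoxified. Per the labels' protocols the batch of 0.7 L received 1 L of feed in 16 h, at a rate that climbed from 0.04 to 0.1 L/h, so the arrays at 18 h were sampled after the end of the stated ramp. The feed between 16 h and 18 h, the cell density, and whether the 9 h and 18 h samples of a replicate came from the same reactor are not given in the sources used here. A sample is the whole culture, so a smaller share of cells with a transcript and less of it per cell cannot be told apart.

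In a fed-batch culture sugar is supplied at a set rate, and the growth rate of the cells is tied to that supply. Growing yeast spends most of its transcription on ribosomes, on the enzymes that make amino acids, nucleotides and sterols, and on the machinery of the cell cycle, which starts with the G1 cyclins and the genes for DNA synthesis that they switch on. Cells that run short of carbon or nitrogen are known to turn these genes down and to turn up genes for gluconeogenesis, storage carbohydrates, autophagy, protein turnover and, in diploids, meiosis.

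Levels are on a log2 scale as RMA (robust multi-array averaging) gives them, a change is the mean at 18 h minus the mean at 9 h on that log2 scale, and a gene was called where the adjusted p of limma's moderated test was under 0.05. Between 9 h and 18 h of the sugar feed 3332 of 5654 genes were called (58.9%), 1806 of them higher at 18 h (31.9%) and 1526 lower (27.0%). At least 2-fold, 803 were higher (14.2%) and 894 lower (15.8%). With scaling by the 27 probe sets of hybridization spike-ins 1283 were higher and 1407 lower with no fold minimum. By at least 2-fold the counts were 714 and 996. With the trend of change with gene length removed 1676 were higher and 1621 lower, and 661 and 888 by at least 2-fold. Of the 3332 genes called without it, 2935 were called there too. The falls also reached further than the rises. With neither adjustment 272 genes were lower and 91 higher by at least 4-fold, and 89 lower and 17 higher by at least 8-fold. The median change of all genes was 0.08. Both arrays of one time lay above both of the other in each of the 3332 called genes, but this held for 86.5% of all genes, so separation of the arrays alone sets few genes apart.

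The replicate arrays correlated across genes at 0.9898 at 9 h and 0.9956 at 18 h, with 53 and 9 genes apart by at least 2-fold. The other groups, which enter the same estimate of the spread in the test, were less alike. There 180 genes were that far apart at the start, 201 in hydrolysate at 9 h and 97 in hydrolysate at 18 h. On the 4 arrays 5470 genes exceeded background, which was the level that 95% of the 5028 probe sets for Schizosaccharomyces pombe stayed under on an array, and 107 did so on none. Values outside the messages moved with time as well. Mean levels were 5.84 and 6.02 at 9 h and 7.64 and 7.40 at 18 h for 24 probe sets of ribosomal RNA, 5.96 and 5.93 against 6.61 and 6.91 for the poly(A) labelling controls, and 10.52 and 10.35 against 10.59 and 10.46 for the hybridization spike-ins. The 3′ minus 5′ difference of 8 control genes was 0.67 on both arrays at 9 h and 0.60 and 0.59 at 18 h. Change also went with gene length: the shortest 25% of genes had a median of -0.13 (20.48% higher, 31.92% lower) and the longest 25% of 0.49 (50% higher, 16.76% lower). Scaling by the poly(A) labelling controls was not run. The part of these quantities in the results was not tested beyond the scaling by hybridization spike-ins and the removal of the length trend. Both adjustments are named for some of the values they change, not for all of them.

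**Figure D1:**
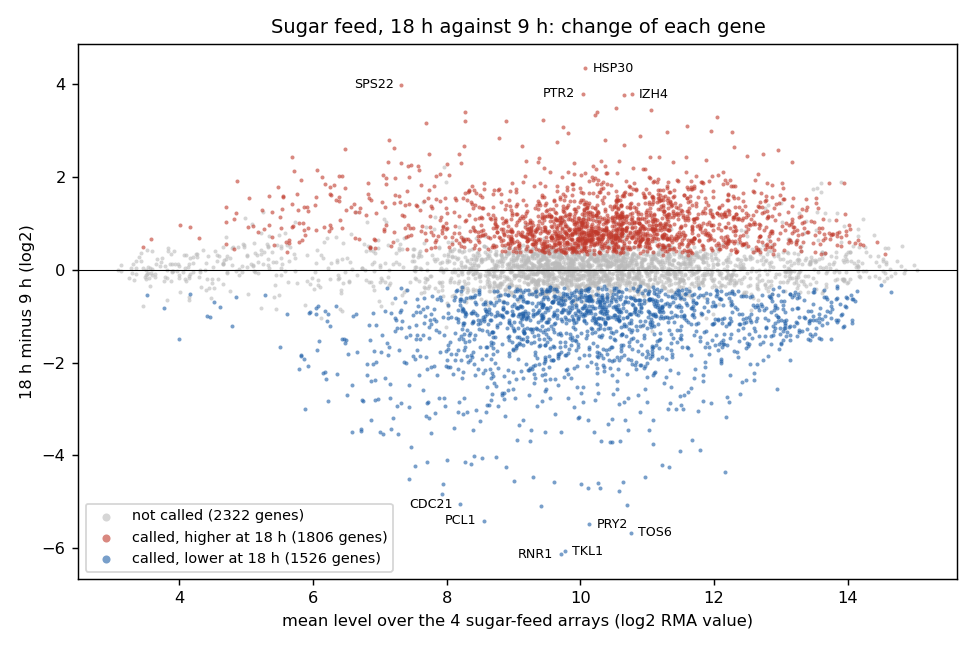
Each point is 1 of 5654 genes, with its mean level over the 4 sugar-feed arrays (log2 RMA value) on the horizontal axis and its change from 9 h to 18 h (log2) on the vertical axis; red genes were called higher (1806), blue genes lower (1526) and grey genes not called (2322). The lower edge extends to -6.14 (RNR1) and the upper to 4.34 (HSP30).

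Genes of DNA synthesis and the start of the cell cycle were among the largest falls. RNR1, the large subunit of ribonucleotide reductase (YER070W, chromosome V, 298950 to 301616), read 12.81 and 12.73 at 9 h and 6.87 and 6.41 at 18 h. The change was -6.14 (SE 0.301, limma adjusted p = 3.81e-06), a 70.3-fold lower level. The arrays at 18 h lay far under both at 9 h and near those at the start of the feed (6.85 and 6.05). CDC21, thymidylate synthase (YOR074C, chromosome XV, 466675 to 467589), read 10.69 and 10.75 at 9 h and 5.72 and 5.61 at 18 h, a change of -5.06 (SE 0.247, limma adjusted p = 3.77e-06). DUT1, the dUTPase that keeps uracil out of DNA, changed by -4.70, POL30, the sliding clamp PCNA, by -4.57, and MCD1, a cohesin subunit, by -4.83. In the list for DNA replication and ribonucleotide reductase 37 of 46 genes were lower and 3 higher, with a median of -1.50. The higher ones included RNR3, the damage-inducible second large subunit (1.98), and SML1, an inhibitor protein of ribonucleotide reductase (0.76), both opposite in direction to RNR1. The mean of the list was 10.55 and 10.53 on the arrays at 9 h and 8.87 on both at 18 h.

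Cyclins of G1 and S phase fell as well. PCL1, a G1 cyclin of the kinase Pho85 (YNL289W, chromosome XIV, 87897 to 88736), read 11.29 and 11.23 at 9 h and 6.50 and 5.19 at 18 h (change -5.41). The replicates at 18 h were further from each other than those at 9 h, and both lay far under them. CLN2 (YPL256C, chromosome XVI, 64977 to 66614) read 10.40 and 10.09 at 9 h and 5.80 and 5.45 at 18 h, a change of -4.62 (SE 0.285, limma adjusted p = 9.69e-06). CLN1 fell by 3.50 and CLB6, a cyclin of S phase, by 2.77. CLN3, the upstream G1 cyclin, changed by -1.21 with a call that was lost without sugar 9 h replicate 1 (limma adjusted p = 0.128) and without sugar 18 h replicate 2 (limma adjusted p = 0.116). WHI5, which encodes the repressor of the G1 transcription factor SBF, had discordant arrays at 9 h: it read 9.19 and 6.39 at 9 h and 10.46 and 10.44 at 18 h, a change of 2.66 that was 1.26 without sugar 9 h replicate 2 and 4.06 without replicate 1. Its call was lost without sugar 9 h replicate 2 (limma adjusted p = 0.0545) and without replicate 1 or 2 at 18 h (0.0608 and 0.0604). Over the whole list of cyclins and cell cycle regulators 19 of 43 genes were lower and 7 higher (44.2% and 16.3%, against 27.0% and 31.9% of all genes). The list had a median of -0.30 (-0.56 with the gene length trend removed and -0.14 without sugar 18 h replicate 2). Its higher count was 2 without sugar 18 h replicate 1 and 3 without sugar 9 h replicate 2. Among 9 histone genes 1 was called, HTB2, a gene of histone H2B, which read 13.19 and 13.32 at 9 h and 10.90 and 9.94 at 18 h (change -2.84), while the other H2B gene HTB1 was at -0.03.

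**Figure D2:**
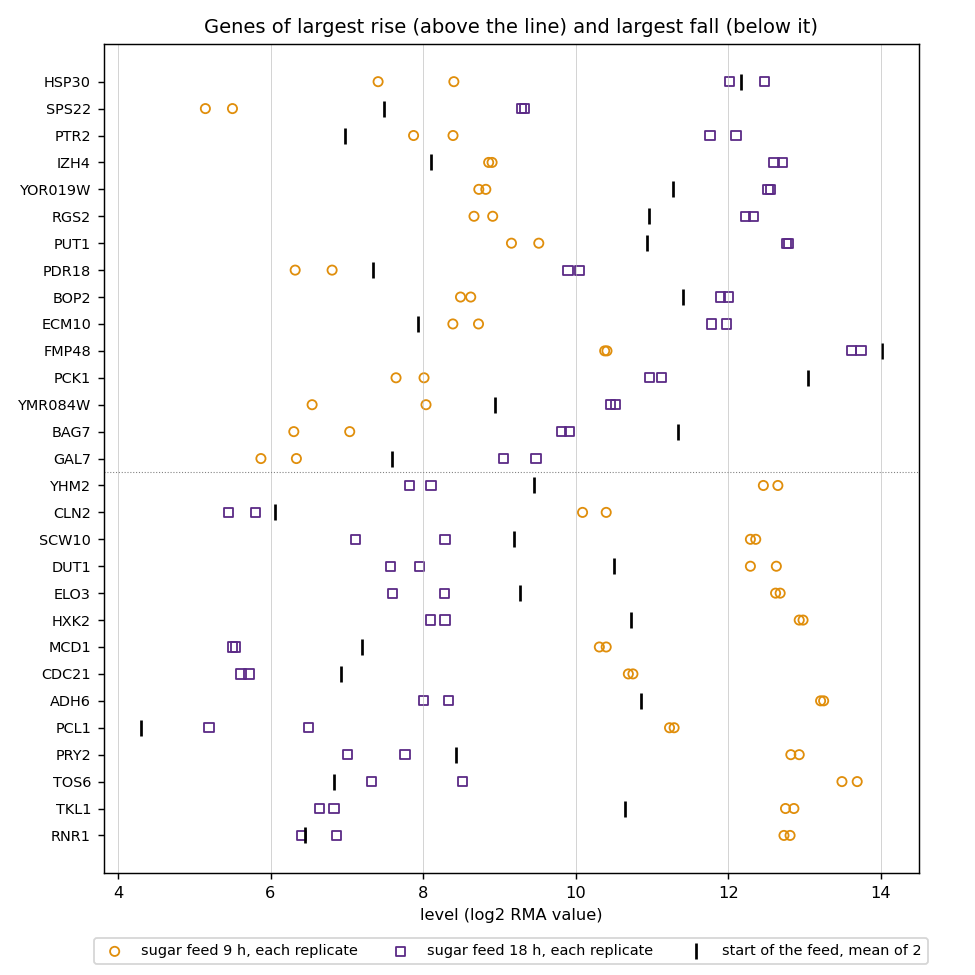
Levels (log2 RMA value) of the 15 genes with the largest rise, above the dotted line, and 14 of the 15 with the largest fall, below it, on each sugar-feed array at 9 h (circles) and 18 h (squares), with the mean of 2 arrays at the start of the feed (bar). The rule that chose these genes required circles and squares to be separate. Changes run from 4.34 (HSP30) to -6.14 (RNR1).

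Genes of the cytosolic ribosome were nearly all lower at 18 h. Of 129 ribosomal protein genes 128 were lower and none higher, with a median of -1.15, against 0.08 for all genes. The gene that was not called was RPS14B (-0.23), and 22 of the 129 are read by probe sets shared with a near-identical copy. The list averaged 13.59 and 13.66 on the arrays at 9 h and 12.32 and 12.45 at 18 h. RPS22A, a protein of the small subunit (YJL190C, chromosome X, 74910 to 75302), read 13.48 and 13.54 at 9 h and 9.93 and 9.74 at 18 h. Its change was the largest of the list, at -3.67 (SE 0.208, limma adjusted p = 6.60e-06), and the groups did not overlap. RPS26B fell by 2.84 and RPL9A by 2.42. At the start of the feed the list averaged 12.32 and 12.11, near its level at 18 h.

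The steps that make ribosomes and charge tRNAs fell as well. All but 2 of 20 cytosolic tRNA synthetase genes were lower (median -1.50), and the 2 that were not called, DPS1 (-0.24) and GLN4 (-0.07), join aspartate and glutamine to their tRNAs. FRS1, a subunit of phenylalanyl-tRNA synthetase (YLR060W, chromosome XII, 260979 to 262766), read 12.28 and 12.29 at 9 h and 9.03 and 9.05 at 18 h, with replicates almost equal at either time and a change of -3.25 (SE 0.121, limma adjusted p = 2.43e-06). HTS1, for histidine, fell by 2.57 and KRS1, for lysine, by 2.41. Of 96 ribosome biogenesis genes 64 were lower and 1 higher (median -0.84), led by NOP1, the fibrillarin that methylates ribosomal RNA (12.44 and 12.40 at 9 h and 9.29 and 9.44 at 18 h, change -3.06). Subunits of RNA polymerases I and III showed 14 of 26 lower and 5 higher, with 2 higher without sugar 18 h replicate 2. The polymerase I subunit genes RPA43 (-2.68), RPA49 (-2.37) and RPA34 (-2.19) fell while RRN3, the initiation factor of that polymerase, rose by 1.08. Of 33 translation factors 20 were lower, among them the elongation factor 3 gene YEF3 (13.79 and 13.68 at 9 h and 11.03 and 11.06 at 18 h, change -2.69).

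The ribosomal RNA probe sets were higher on both arrays at 18 h than on either at 9 h, as given above. The poly(A) labelling controls were higher at 18 h as well, and whether the amount of ribosomal RNA changed was not tested. Genes of mitochondrial ribosomal proteins stood apart from the cytosolic ones, with a median of -0.33 (-0.21 without sugar 9 h replicate 2). Among the 75 genes 16 were lower (21.3%, against 27.0% of all genes). That count rests on single libraries: it was 6 without sugar 9 h replicate 2, 9 and 8 without replicates 1 and 2 at 18 h, and 33 without either hydrolysate array at 9 h, which enter only through the shared estimate of the spread. MRPL32, a protein of the large subunit, was the most changed of them (11.30 and 11.50 at 9 h and 9.49 and 9.41 at 18 h, change -1.95).

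**Figure D3:**
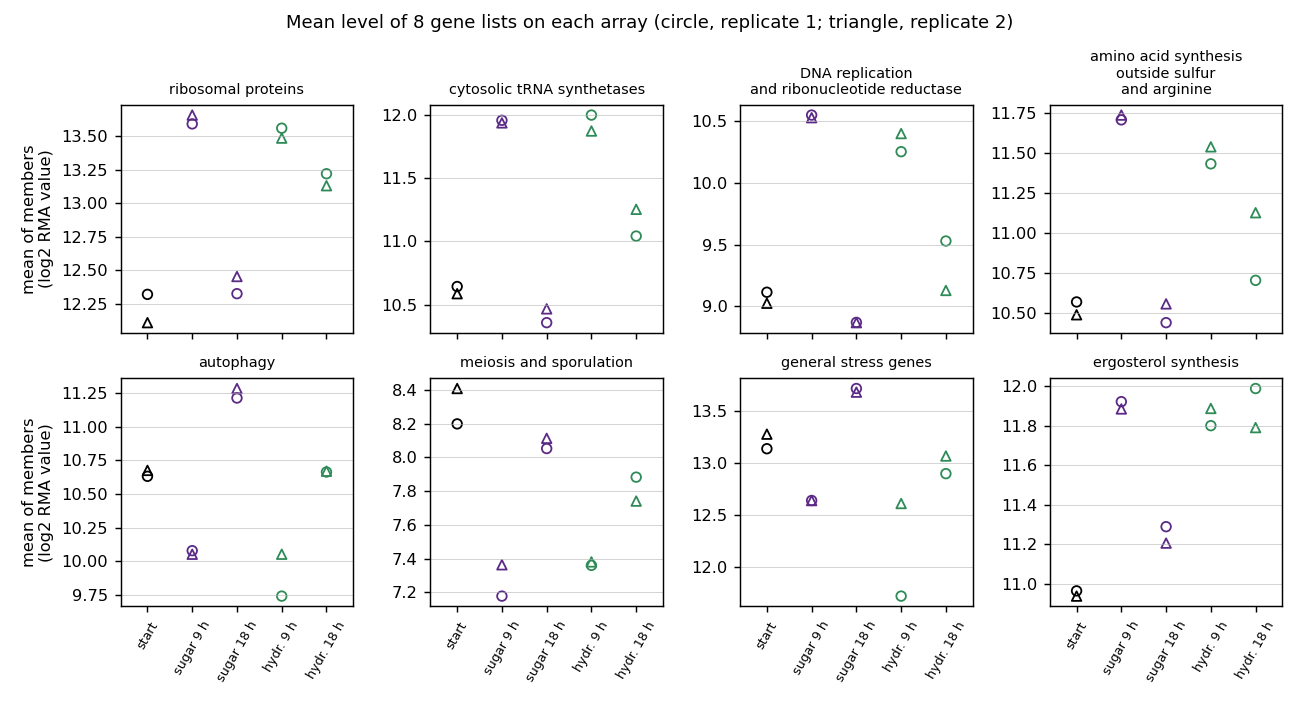
Mean level (log2 RMA value) of the measured members of 8 gene lists on each of the 10 arrays, with circles for replicate 1 and triangles for replicate 2; purple marks the sugar feed, green the hydrolysate feed and black the start. In the sugar feed ribosomal protein genes went from 13.59 and 13.66 at 9 h to 12.32 and 12.45 at 18 h, and autophagy genes from 10.08 and 10.05 to 11.21 and 11.28.

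Most genes of amino acid and purine synthesis were lower at 18 h. Outside sulfur and arginine 46 of 68 amino acid synthesis genes were lower and 3 higher (median -0.98). GDH1, the glutamate dehydrogenase that assimilates ammonium (YOR375C, chromosome XV, 1041678 to 1043042), read 14.41 and 14.27 at 9 h and 10.03 and 9.93 at 18 h, a change of -4.36 (SE 0.209, limma adjusted p = 3.76e-06). Lysine synthesis held large falls: LYS9 changed by -4.20 and LYS4 by -3.71. YHM2, a mitochondrial carrier that exports citrate in exchange for oxoglutarate (YMR241W, chromosome XIII, 751961 to 752905), read 12.46 and 12.65 at 9 h and 8.10 and 7.82 at 18 h, a change of -4.60. The aromatic aminotransferase gene ARO8 fell by 3.71. In purine and one-carbon synthesis 20 of 30 genes were lower and 3 higher (median -0.98). GUA1, GMP synthase, fell by 3.69 and ADE17, of the last steps to IMP, by 3.01, whereas BAS1 and PHO2, the activator genes of the purine pathway, rose by 1.43 and 0.94.

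In the list for sulfate assimilation and methionine 12 of 37 genes were lower and 8 higher (32.4% and 21.6%, against 27.0% and 31.9% of all genes). SAH1, which clears S-adenosylhomocysteine (YER043C, chromosome V, 235770 to 237119), read 13.73 and 13.73 at 9 h and 10.02 and 9.66 at 18 h, a change of -3.89 (SE 0.154, limma adjusted p = 3.19e-06). SAM2, S-adenosylmethionine synthetase, changed by -2.37, CYS3, cystathionine gamma-lyase, by -2.70, and SUL1, a sulfate permease, changed by -1.50. MUP1, the high-affinity methionine permease (YGR055W, chromosome VII, 599417 to 601141), moved the other way and read 9.48 and 9.15 at 9 h and 11.85 and 12.15 at 18 h, a change of 2.68 (SE 0.32, limma adjusted p = 0.000192). JLP1, which releases sulfite from sulfonates, rose by 1.98.

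Genes for the uptake and use of nitrogen sources were called in shares near those of all genes. PTR2, the transporter of di- and tripeptides (YKR093W, chromosome XI, 615730 to 617535), read 8.39 and 7.88 at 9 h and 11.76 and 12.10 at 18 h, a change of 3.79 (SE 0.404, limma adjusted p = 0.000115). PUT1, proline oxidase (YLR142W, chromosome XII, 425186 to 426616), read 9.52 and 9.16 at 9 h and 12.79 and 12.76 at 18 h, a change of 3.44 (SE 0.284, limma adjusted p = 3.74e-05). Both lay higher at 18 h than at the start of the feed, where PTR2 averaged 6.98 and PUT1 10.93, and at 9 h PUT1 was under its level at the start. The amino acid permease gene AGP3 rose by 2.34 and the urea transporter gene DUR3 by 1.51. MEP2, the high-affinity ammonium permease (YNL142W, chromosome XIV, 357453 to 358952), read 13.03 and 12.88 at 9 h and 9.21 and 9.19 at 18 h, a change of -3.76 (SE 0.495, limma adjusted p = 0.000307), and DAL3, of allantoin breakdown, fell by 4.58. The list for ammonium, amino acid and allantoin use had 12 higher and 11 lower of 43 (27.9% and 25.6%, against 31.9% and 27.0% of all genes), and its higher count was 6 without sugar 9 h replicate 2 and 7 without sugar 18 h replicate 2. In the arginine pathway ARG1 fell by 3.21 and ARG8 by 1.99, while CPA1, a subunit of carbamoyl phosphate synthetase, rose by 1.15.

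Central carbon metabolism changed gene by gene, not as a block. TKL1, the main transketolase of the pentose phosphate pathway (YPR074C, chromosome XVI, 692796 to 694838), read 12.86 and 12.75 at 9 h and 6.64 and 6.83 at 18 h, with a change of -6.07 (SE 0.14, limma adjusted p = 1.64e-07), 67.1-fold lower. At the start of the feed it read 10.73 and 10.56, so the level at 18 h was below both earlier times. GND1, the main 6-phosphogluconate dehydrogenase, changed by -3.91. XYL2, the yeast's own xylitol dehydrogenase gene (YLR070C, chromosome XII, 274141 to 275211), rose and read 10.88 and 10.84 at 9 h and 12.73 and 12.78 at 18 h, a change of 1.90 (SE 0.34, limma adjusted p = 0.00152). In the list for xylose and the pentose phosphate pathway 7 of 17 genes were higher and 4 lower. These shares were 41.2% and 23.5%, against 31.9% and 27.0% of all genes. The higher count was smaller without any 1 of the 4 sugar arrays. ALD6, which makes acetate in the cytosol and yields NADPH (YPL061W, chromosome XVI, 432588 to 434090), read 13.36 and 13.05 at 9 h and 8.99 and 8.47 at 18 h, a change of -4.48 (SE 0.343, limma adjusted p = 2.63e-05). ACS2, an acetyl-CoA synthetase, fell by 2.27, and ALD2, a stress-induced aldehyde dehydrogenase, rose by 1.95.

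In glycolysis HXK2, the hexokinase of cells growing on abundant glucose (YGL253W, chromosome VII, 23935 to 25395), read 12.98 and 12.93 at 9 h and 8.29 and 8.10 at 18 h, a change of -4.76 (SE 0.151, limma adjusted p = 9.82e-07), while its paralog HXK1 read 13.90 and 13.84 at 9 h and 13.45 and 13.29 at 18 h and was not called (-0.50, 95% interval -0.995 to -0.0011, limma adjusted p = 0.0791). It was called without either hydrolysate array at 18 h (limma adjusted p = 0.0251). ENO2, an enolase gene, fell by 2.58. Of 27 glycolytic and fermentation genes 7 were lower (25.9%, against 27.0% of all genes) and 19 were not called. The lower count was smaller without any 1 of the 4 sugar arrays. Hexose transport and sensing had 10 of 23 higher and 2 lower (43.5% and 8.7%, against 31.9% and 27.0% of all genes). The glucose sensor gene SNF3 rose by 1.75, its downstream regulator gene MTH1 by 1.55, and the repressor gene MIG3 by 1.65. The repressor gene MIG2 went the other way (change -1.1, limma adjusted p = 0.00455). HXT2, a high-affinity transporter, read 10.66 and 10.05 at 9 h and 8.41 and 8.17 at 18 h and fell by 2.06. HXT3 (-0.27, interval -0.80 to 0.26) was not called.

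Among genes for growth without fermentable sugar 24.1% rose, against 31.9% of all genes. PCK1, phosphoenolpyruvate carboxykinase and the first committed step of gluconeogenesis (YKR097W, chromosome XI, 631152 to 632801), read 7.64 and 8.01 at 9 h and 10.97 and 11.12 at 18 h, a change of 3.22 (SE 0.215, limma adjusted p = 1.42e-05). ICL1, isocitrate lyase of the glyoxylate cycle, read 11.12 and 11.17 at 9 h and 12.78 and 12.89 at 18 h and rose by 1.69. The activator genes CAT8 and SIP4, which switch on such genes, rose by 1.90 and 2.23, and REG2, a regulatory subunit of protein phosphatase 1, by 2.89 (9.37 and 9.53 at 9 h and 12.38 and 12.30 at 18 h). Several well-known members of the list were not called. ADH2, the dehydrogenase that consumes ethanol, read 14.71 and 14.62 at 9 h and 14.49 and 14.36 at 18 h (-0.24, interval -2.10 to 1.63), and ACS1 read 14.15 and 14.02 at 9 h and 14.53 and 14.42 at 18 h (0.39, interval -0.80 to 1.58). The latter was called without either hydrolysate array at 9 h (limma adjusted p = 0.0369). FBP1, fructose bisphosphatase, stood at -0.23 (interval -0.59 to 0.14) and the lactate and acetate transporter gene JEN1 at 0.19 (interval -0.42 to 0.80). In all 7 of 29 were higher and 1 lower, the lower one being STL1, the glycerol symporter (-2.58), and the higher count was 15 without either hydrolysate array at 9 h. The median of 0.38 was 0.11 with the gene length trend removed.

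GAL7, GAL1 and GAL2 rose, and galactose is not among the sugars that the labels name for this feed. GAL7, the uridylyltransferase of the pathway (YBR018C, chromosome II, 274427 to 275527), read 5.87 and 6.34 at 9 h and 9.05 and 9.48 at 18 h, a change of 3.16 (SE 0.242, limma adjusted p = 2.64e-05). GAL1, galactokinase, read 7.42 and 7.68 at 9 h and 9.01 and 9.11 at 18 h (1.51), and GAL2, the galactose permease, 5.68 and 6.01 at 9 h and 7.17 and 7.09 at 18 h (1.28). GAL10, which lies between GAL7 and GAL1 on chromosome II, read 4.91 and 4.99 at 9 h and 5.14 and 5.49 at 18 h and was not called (0.37, interval -0.18 to 0.91, and 0.19 without sugar 18 h replicate 2). The invertase gene SUC2 fell by 1.39 and the isomaltase gene IMA1 by 2.36, while the maltose permease gene MAL31 rose by 1.13. In all 4 of 15 genes of this list were higher and 3 lower (26.7% and 20%, against 31.9% and 27.0% of all genes).

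Respiration genes fell in part. CYC1, cytochrome c (YJR048W, chromosome X, 526335 to 526664), read 13.19 and 13.38 at 9 h and 10.63 and 9.86 at 18 h, a change of -3.04 (SE 0.266, limma adjusted p = 5.05e-05), and NDE1, the external NADH dehydrogenase, fell by 1.93. The subunits of the activator of respiratory genes diverged: HAP4 and HAP3 fell by 1.17 and 1.94 and HAP2 rose by 0.95. HAP1, a heme-responsive activator, read 11.04 and 10.40 at 9 h and 12.77 and 12.72 at 18 h and rose by 2.03. Of 45 genes for the respiratory chain and ATP synthase 17 were lower and 5 higher (37.8% and 11.1%, against 27.0% and 31.9% of all genes). The lower count was smaller without sugar 9 h replicate 2 or without sugar 18 h replicate 2. The higher count was smaller without replicate 1 of either time. In the tricarboxylic acid cycle 8 of 21 were lower and 3 higher (38.1% and 14.3%, against 27.0% and 31.9% of all genes). The lower count was smaller without any 1 of 3 arrays (both at 18 h and replicate 2 at 9 h). The lower genes included IDP1, a mitochondrial isocitrate dehydrogenase, at -1.68 and LSC2, of succinyl-CoA ligase, at -1.05.

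**Figure D4:**
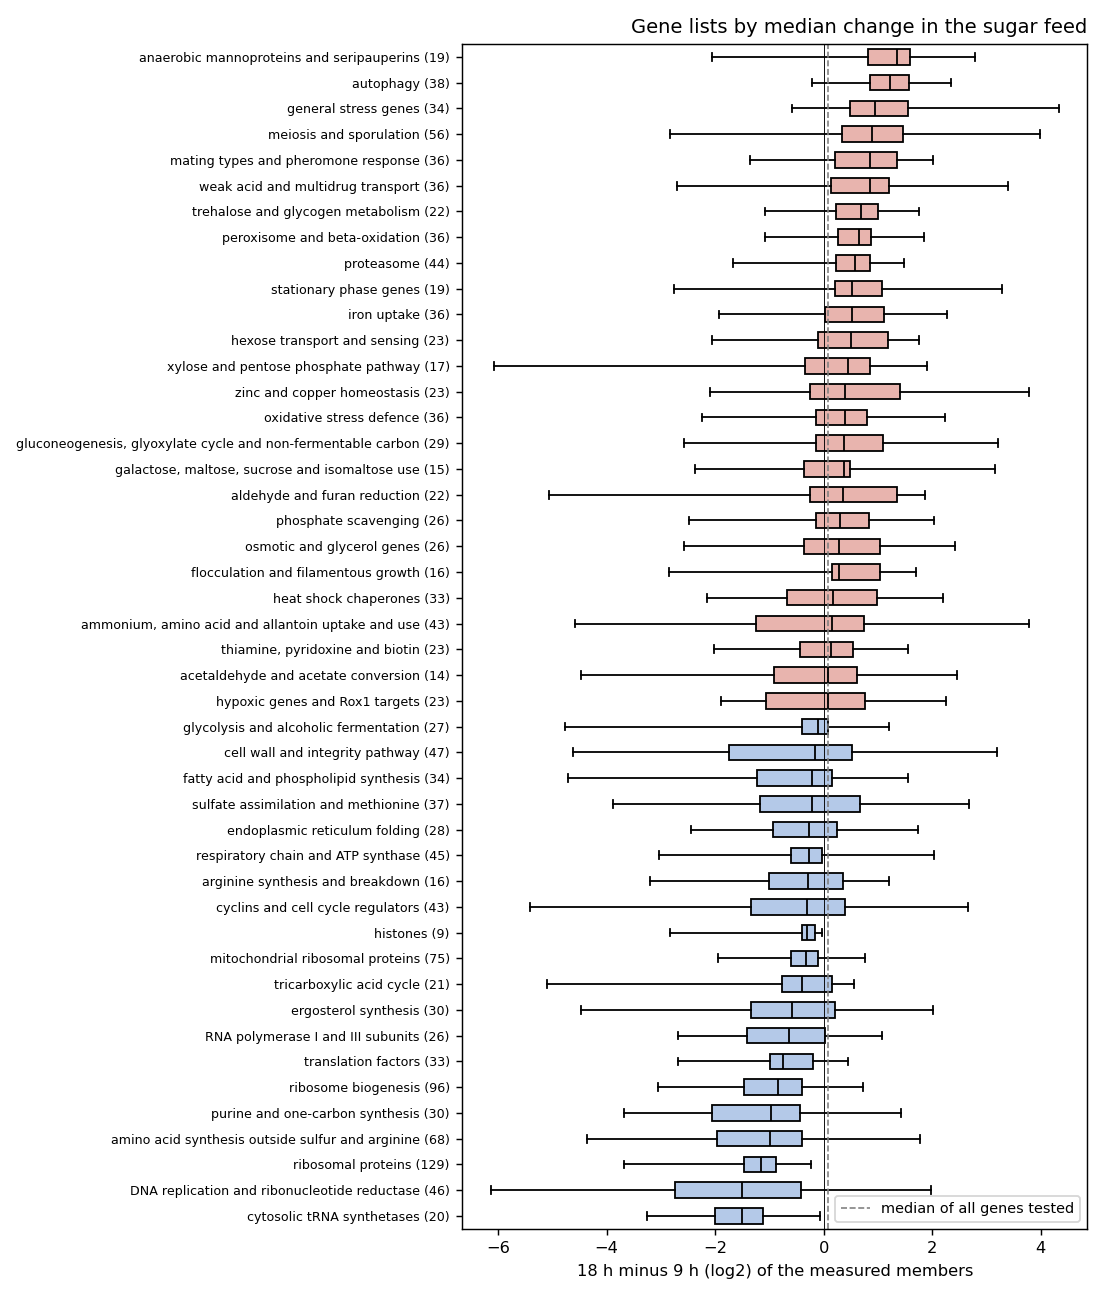
Change from 9 h to 18 h in the sugar feed (log2) of the measured members of each of 46 gene lists, with the number measured in brackets; boxes span the quartiles with the median as a line, whiskers reach the lowest and highest member, red boxes have a median above 0 and blue boxes below, and the dashed line is the median of all genes tested (0.08). Medians run from -1.50 for cytosolic tRNA synthetases and DNA replication to 1.35 for anaerobic mannoproteins and seripauperins.

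Membrane lipids and the cell wall also held large falls. ERG4, the last enzyme of ergosterol synthesis (YGL012W, chromosome VII, 472855 to 474276), read 11.47 and 11.58 at 9 h and 7.17 and 6.95 at 18 h, a change of -4.47 (SE 0.196, limma adjusted p = 3.22e-06). ERG6 fell by 4.25 and ERG3 by 2.54, and 17 of 30 genes of the list were lower against 6 higher. The higher ones included HMG2, an isozyme of HMG-CoA reductase (1.80), and ARE2, which stores sterols as esters (2.02), and with scaling by spike-ins 3 were higher. ELO3 and ELO2, fatty acid elongases, changed by -4.71 and -3.24 and INO1, inositol phosphate synthase, by -3.18, while PAH1, the phosphatase that leads lipid to storage, rose by 1.56. TOS6, a cell wall protein gene (YNL300W, chromosome XIV, 65744 to 66052), read 13.69 and 13.49 at 9 h and 8.52 and 7.33 at 18 h, a change of -5.67 (SE 0.416, limma adjusted p = 2.08e-05). The arrays at 18 h were less alike than those at 9 h and both far under them. PRY2, a secreted sterol-binding protein gene, changed by -5.49, SCW10, a cell wall glucanase-like gene, by -4.63, FKS1, the glucan synthase of growing cells, by -3.24, and UTR2, a chitin transglycosylase gene, by -3.53. In the cell wall list 17 of 47 were lower and 12 higher (36.2% and 25.5%, against 27.0% and 31.9% of all genes). The higher ones were led by BAG7, a GTPase-activating protein of Rho1 (7.04 and 6.30 at 9 h and 9.92 and 9.82 at 18 h, change 3.20).

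Autophagy genes rose with few exceptions. Of 38 genes 32 were higher and none lower, with a median of 1.23 (29 to 33 higher over the arrays left out). ATG1, the kinase that starts autophagy (YGL180W, chromosome VII, 160065 to 162758), read 10.09 and 9.67 at 9 h and 11.99 and 12.10 at 18 h, a change of 2.17 (SE 0.186, limma adjusted p = 4.60e-05). ATG9, the membrane protein that seeds the autophagosome, rose by 2.16 and ATG40, a receptor for turnover of the endoplasmic reticulum, by 2.10. The 6 genes that were not called were ATG5 (-0.01), ATG10 (-0.03), ATG17 (0.29), ATG27 (0.08), ATG41 (0.79) and UTH1 (-0.22). The proteasome, the other route of protein turnover, had 28 of 44 higher and 2 lower at a smaller size (median 0.58). RPN4, the activator gene of proteasome genes, rose by 1.22 (11.54 and 11.33 at 9 h and 12.57 and 12.74 at 18 h), and RPN2, a subunit of its regulatory particle, by 1.25. POC4 and IRC25, a pair of assembly chaperones, fell by 1.67 and 0.93. With scaling by spike-ins 16 proteasome genes were higher.

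Stress genes rose unevenly. HSP30, a stress protein of the plasma membrane (YCR021C, chromosome III, 156109 to 157107), showed the largest rise of all genes and read 7.41 and 8.40 at 9 h and 12.47 and 12.02 at 18 h, a change of 4.34 (SE 0.759, limma adjusted p = 0.00132). Both arrays at 9 h lay far under those at 18 h. SNO4, of the DJ-1 family and read by a shared probe set, rose by 1.88, YAP1, the activator of oxidative stress genes, by 1.27, and HSP82, the inducible Hsp90, by 1.67. ECM10, a mitochondrial Hsp70 (YEL030W, chromosome V, 94644 to 96578), read 8.39 and 8.73 at 9 h and 11.78 and 11.98 at 18 h, a change of 3.33 (SE 0.295, limma adjusted p = 5.41e-05). HSP12 read 14.93 and 14.95 at 9 h and 15.05 and 15.04 at 18 h and was not called (0.10, interval -0.19 to 0.40). The catalase gene CTT1 (0.48, interval -0.63 to 1.58) and HSP26 (1.25, interval -0.14 to 2.63) were not called either, but both were without either hydrolysate array at 9 h (limma adjusted p = 0.00607 and 0.000985). General stress genes had 19 of 34 higher (median 0.94), a count of 10 without sugar 9 h replicate 2, 11 and 12 without replicate 1 and replicate 2 at 18 h, and 28 without either hydrolysate array at 9 h. Chaperones had 12 higher and 9 lower of 33, shares (36.4% and 27.3%) near those of all genes (31.9% and 27.0%). SSA2, a constitutive Hsp70, fell by 2.15 and BTN2, which sorts misfolded proteins, rose by 2.20. TRR1, cytosolic thioredoxin reductase, fell by 2.23.

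Storage carbohydrates and drug transport rose in more members than fell. In trehalose and glycogen metabolism 12 of 22 genes were higher, 6 without sugar 9 h replicate 2 or without sugar 18 h replicate 1. GLG2, the glycogen primer, read 10.81 and 10.85 at 9 h and 12.56 and 12.60 at 18 h (1.75), and PIG2, a glycogen-bound phosphatase subunit, rose by 1.71. TPS1, trehalose phosphate synthase (0.62, interval -0.03 to 1.27), and GSY2, glycogen synthase (0.37, interval -0.26 to 1.00), were not called, and TPS1 was without either hydrolysate array at 9 h (limma adjusted p = 0.0308). PDR18, an ABC transporter gene (YNR070W, chromosome XIV, 765375 to 769376), read 6.32 and 6.81 at 9 h and 9.90 and 10.05 at 18 h, a change of 3.41 (SE 0.281, limma adjusted p = 3.69e-05), and PDR10, of the same family, rose by 2.59. PDR12, the exporter of weak acid anions, fell instead and read 12.88 and 12.91 at 9 h and 10.33 and 10.05 at 18 h (-2.71). In all 22 of 36 transport genes were higher and 4 lower (median 0.85). With the gene length trend removed that median was 0.50, and the trehalose and glycogen median of 0.70 was 0.41.

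Among reductases known to act on aldehydes, furans and related compounds, ADH6 and OYE2 had large falls. ADH6, an NADPH-dependent alcohol dehydrogenase (YMR318C, chromosome XIII, 911061 to 912143), read 13.25 and 13.21 at 9 h and 8.33 and 8.01 at 18 h, a change of -5.06 (SE 0.24, limma adjusted p = 3.76e-06). OYE2, an NADPH oxidoreductase (YHR179W, chromosome VIII, 462502 to 463704), read 11.07 and 11.48 at 9 h and 7.04 and 6.42 at 18 h, a change of -4.55 (SE 0.343, limma adjusted p = 2.41e-05). AAD6, a putative aryl alcohol dehydrogenase gene, rose by 1.88. Of 22 members of the list 9 were higher and 5 lower (40.9% and 22.7%, against 31.9% and 27.0% of all genes).

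More meiosis and mating genes rose than fell. Of 56 meiosis and sporulation genes 34 were higher and 5 lower (median 0.90), and the lower count was 1 without any of 3 arrays (both at 18 h and replicate 2 at 9 h) and 2 without sugar 9 h replicate 1. SPS22, needed for the spore wall (YCL048W, chromosome III, 42165 to 43556), read 5.15 and 5.50 at 9 h and 9.33 and 9.29 at 18 h, a change of 3.99 (SE 0.212, limma adjusted p = 5.48e-06). Regulators rose by less. IME1, the master activator, read 8.18 and 7.87 at 9 h and 9.46 and 9.28 at 18 h (1.35) and NDT80, of the middle genes, 7.26 and 7.82 at 9 h and 8.40 and 8.45 at 18 h (0.88). MEK1, a meiotic kinase gene, was below background at 9 h and at least 4.33-fold higher at 18 h (limma adjusted p = 4.75e-05). SPR3, a septin of spores, rose by 2.50 and SMK1, a kinase of spore formation, by 1.46, but DIT1, which makes the dityrosine of the mature spore wall was not called (-0.54, interval -1.16 to 0.08, and -0.30 without sugar 9 h replicate 2). DIT1 was called lower without either hydrolysate array at 9 h (limma adjusted p = 0.0406). SPO16, of meiotic chromosome pairing, fell by 2.83. Of 7 sporulation markers (IME1, IME2, NDT80, SPS1, SPR3, SMK1 and DIT1) 6 were higher and all exceeded background on the 4 arrays, and SPS1 lost its call without sugar 18 h replicate 2 (limma adjusted p = 0.0504) and without sugar 9 h replicate 1 (limma adjusted p = 0.0503).

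Mating genes had 21 of 36 higher and 4 lower. The receptor genes of both mating types rose, STE2 of a cells with 8.11 and 8.41 at 9 h and 9.39 and 9.37 at 18 h (1.12) and STE3 of α cells with 6.53 and 7.14 at 9 h and 8.63 and 9.08 at 18 h (2.02). FUS1 and FUS2, of cell fusion, rose by 1.88 and 2.00, and SAG1, the agglutinin of α cells, by 1.80. The pheromone gene MFA2 of a cells rose by 0.96, whereas MF(ALPHA)1 of α cells was above background on 1 of 2 arrays at 9 h and on none at 18 h. The mating type and ploidy of the strain are not given in the sources used here. RGS2, which turns off signalling from the glucose receptor Gpr1 (YOR107W, chromosome XV, 521353 to 522282), read 8.91 and 8.67 at 9 h and 12.23 and 12.33 at 18 h, a change of 3.49 (SE 0.247, limma adjusted p = 1.81e-05).

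The list of seripauperins, small mannoproteins mostly encoded near chromosome ends, and anaerobic mannoproteins had the highest median of the 46 lists. In it 15 of 19 were higher and 1 lower (median 1.35), but 10 share probe sets with near-identical copies, and without shared probe sets the median was 0.73. TIR4, a cell wall mannoprotein with its own probe set (YOR009W, chromosome XV, 344335 to 345798), read 7.77 and 7.62 at 9 h and 9.47 and 9.40 at 18 h, 3.34-fold higher (limma adjusted p = 0.00555), and TIR3 fell by 2.06. Among all 321 genes within 25 kb of the outermost measured gene of a chromosome arm, 35.2% were higher and 14.64% lower, against 31.8% and 27.56% of the 5280 genes further inside.

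The hydrolysate feed gave the same contrast of times in other cultures, which share no array with the sugar contrast. Across 5654 genes the changes in the 2 feeds correlated with a Pearson r of 0.618 (Spearman 0.591), a description across genes that are not independent of each other. In hydrolysate 1989 genes were called (35.2%), 1020 higher (18.0%) and 969 lower (17.1%), with 258 higher (4.56%) and 407 lower (7.20%) by at least 2-fold. With scaling by spike-ins, and no fold minimum, 236 were higher and 1202 lower, and the median of all genes moved from 0.06 to -0.23. Of the 803 genes that rose at least 2-fold in the sugar feed 715 (89.04%) had a hydrolysate change above 0, against 54.37% of all genes. Of the 894 that fell at least 2-fold 763 (85.35%) were below 0 in hydrolysate, against 45.63% of all genes. The difference between the feeds in this change was called for 1548 genes (27.4%), with a higher change in sugar for 738 (13.1%) and a lower one for 810 (14.3%), of which 397 (7.02%) and 552 (9.76%) reached 2-fold. That count was 653 without sugar 9 h replicate 2, 683 and 688 without replicates 1 and 2 of sugar at 18 h, and 889 and 1011 without replicates 1 and 2 of hydrolysate at 18 h. Scaling by spike-ins moved the median of this difference from 0.05 to 0.25, with 593 genes higher and 324 lower, so that statements of direction between feeds are relative to that shift.

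**Figure D5:**
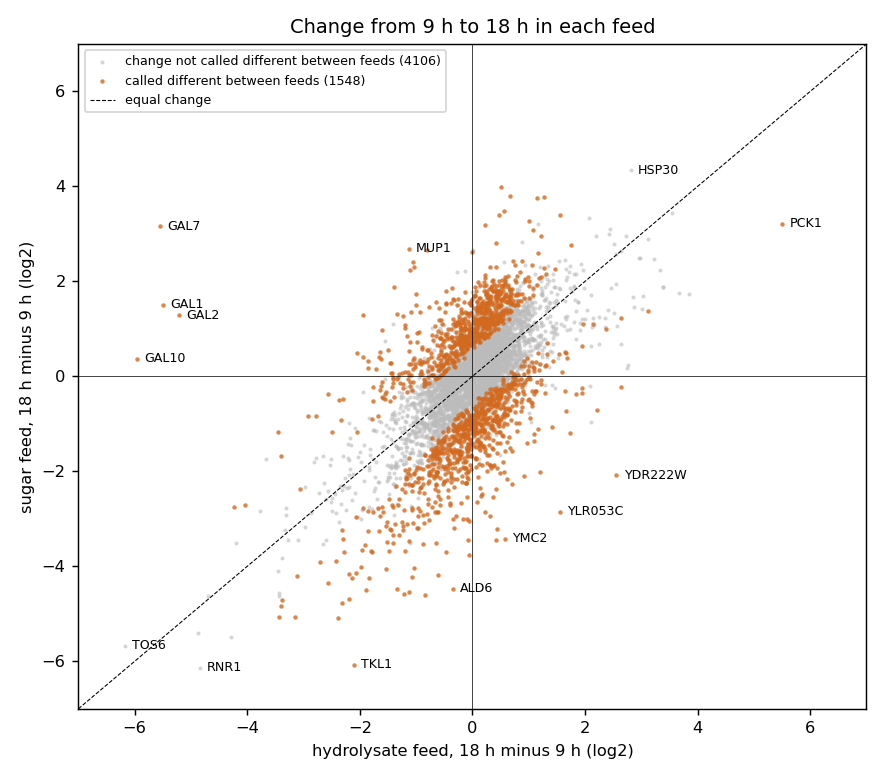
Change from 9 h to 18 h (log2) of each of 5654 genes in the hydrolysate feed (horizontal) and in the sugar feed (vertical), with the 1548 genes called for the difference between feeds in orange, the others in grey, and equal change as a dashed line. The 4 galactose genes sit at the upper left, with hydrolysate changes from -5.96 to -5.22.

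The galactose genes differed most between the feeds. In hydrolysate GAL7 read 13.93 and 13.97 at 9 h and 8.58 and 8.22 at 18 h, a fall of 5.55, against the rise of 3.16 in sugar, and the difference was 8.71 (SE 0.343, limma adjusted p = 1.48e-05). GAL1 differed by 7.00, GAL2 by 6.50 and GAL10 by 6.32. For GAL7 both sugar arrays lay above both hydrolysate arrays at 18 h. That gap was much smaller than the one at 9 h, where the hydrolysate arrays were far above the sugar arrays. MUP1 rose in sugar and changed by -1.13 in hydrolysate, a difference of 3.81 (SE 0.453, limma adjusted p = 0.0021).

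Among the genes with the largest falls in sugar, TKL1 fell less in hydrolysate (-2.11), a difference of -3.96 (SE 0.198, limma adjusted p = 3.66e-05). YHM2 (-3.75), DUT1 (-2.51), HXK2 (-2.45) and ADH6 (-1.91) also fell further in sugar. ALD6 read 13.43 and 13.31 at 9 h and 13.60 and 12.44 at 18 h in hydrolysate and was not called there (-0.35), a difference of -4.13 (SE 0.485, limma adjusted p = 0.00206). RNR1 (hydrolysate change -4.84), TOS6 (-6.17) and CLN2 (-3.44) fell in both feeds, and their differences between feeds were not called. For RNR1 and CLN2 the difference was called without either start array (limma adjusted p = 0.0274 and 0.037), and for TOS6 it went from 0.51 to -0.09 without sugar 18 h replicate 1.

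Of the largest rises PDR18, RGS2, BAG7 and SPS22 had hydrolysate changes between 0.22 and 0.57, with differences of 2.93, 2.92, 2.98 and 3.48. SPS22 read 4.71 and 4.90 at 9 h and 5.36 and 5.26 at 18 h in hydrolysate. PCK1 rose further in hydrolysate, where it read 9.05 and 8.41 at 9 h and 14.28 and 14.18 at 18 h, a difference of -2.29 (SE 0.303, limma adjusted p = 0.00286). PUT1 rose by 3.55 in hydrolysate, and its difference between feeds (-0.10) was not called and changed sign without any 1 of 3 arrays.

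Gene lists also differed between the feeds. Among ribosomal protein genes 89 of 129 had a lower change in sugar and none a higher one, beside 14.3% of all genes, with medians of -1.15 in sugar and -0.28 in hydrolysate. For tRNA synthetases 10 of 20 were lower, for DNA replication 18 of 46 lower and 1 higher, and for ergosterol synthesis 13 of 30 lower and 2 higher. The opposite direction prevailed in other lists, beside 13.1% of all genes with a higher change in sugar. In sulfate assimilation and methionine 16 of 37 were higher and 4 lower, and in the cell wall 15 of 47 higher and 4 lower. In cyclins and cell cycle regulators 11 of 43 were higher and 1 lower. Autophagy rose in both feeds, with 32 of 38 genes higher in sugar and 24 in hydrolysate. The difference was called for 6 of 38 with a larger change in sugar, beside 13.1% of all genes, and for 1 with a smaller one.

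Set beside the start of the feed, most of these lists had moved one way by 9 h and back by 18 h. The 2 differences share the same start arrays, so each list's values are given only side by side. The median difference from the start was 1.38 at 9 h and 0.16 at 18 h for ribosomal proteins, 1.34 and -0.15 for tRNA synthetases, 1.27 and -0.28 for DNA replication, and 1.39 and -0.16 for amino acid synthesis. Autophagy stood at -0.63 and 0.63, general stress genes at -0.54 and 0.24, and meiosis and sporulation at -0.97 and -0.06. Ergosterol synthesis, at 0.85 and 0.43, and cyclins, at 1.48 and 0.74, were still above the start at 18 h. Mitochondrial ribosomal protein genes stood under the start at both times (-1.37 and -1.74).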

How the data were processed

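RNA was extracted with Trizol and labelled after one-cycle amplification, per the labels' protocols, and hybridized to arrays that also carry Schizosaccharomyces pombe probe sets. The sources used here do not give the kind of array. The deposited series table holds log2 values that the authors made by RMA, and the submitters' processing notes name R 4.2.1, affy 1.74.0 and limma 3.52.4. Another 10 columns of array values in the deposited files were not used. Of 10928 probe sets 5811 belong to S. cerevisiae, 5702 of these name 1 gene, and the probe set with the highest mean over 10 arrays gave 5654 genes. Coordinates are those of the authors' deposited annotation table, which names no genome build, and cover 5601 genes. That table heads the later time 17 h and the labels give 18 h.

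One limma fit (version 3.58.1, R 4.3.3) of 5 group means over all 10 arrays had 5 residual degrees of freedom and 3.49 prior ones. Tests were two-sided, and p-values were adjusted over all 5654 genes by Benjamini and Hochberg's method. With 2 arrays a group, the number of arrays limits the precision. The fit was also run on simulated arrays with known changes. Their noise was independent and of equal spread in all groups, so that run cannot test the calls where the groups differ in spread. A gene below background on both arrays of a group has only a bound there, and its fold is given as "at least", from the brighter mean over the background.

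Genes named are the 15 largest rises and 15 largest falls among called genes. For these the arrays at 9 h and 18 h had to be free of overlap and the brighter mean above background. Also named are the key genes set for carbon, stress and nutrients. From each list up to 4 called members in its commoner direction and 2 in the other are named. The cell form markers and the 5 largest differences between feeds in either direction complete the rule. One gene that the rule names is not reported here. Members named outside that rule, such as uncalled list members given to complete a count, were chosen after their values were seen. The gene lists and members were chosen with earlier results of these data known. Same-numbered replicates at 9 h and 18 h were checked for pairing: the correlation of their deviations was 0.068 in sugar and 0.048 in hydrolysate. They were not treated as pairs, and whether they shared a reactor stays unknown. Alternatives were scaling, normalization, filters, prior, blocks, removal of the gene length trend and each array left out.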

Additional observations from a re-analysis of the deposited data

Results flagged for a closer look

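The difference between feeds in the change from 9 h to 18 h was followed for 38 named genes, chosen for the largest changes in sugar or the largest differences between feeds. By limma's test of the difference itself it was called for 28 of them, of which 27 are given here, and for 27.4% of all genes. Since size of change chose these genes, their count is a description. The values are the sugar change minus the hydrolysate change on the log2 scale, from 2 arrays in each of 4 groups. The difference was above 0 for the galactose genes GAL7 (8.71), GAL1 (7.00), GAL2 (6.50) and GAL10 (6.32). It was also above 0 for MUP1 (3.81), SPS22 (3.48), PTR2 (3.12), BAG7 (2.98), PDR18 (2.93), RGS2 (2.92), YOR019W (2.60), IZH4 (2.51), FMP48 (2.28) and BOP2 (1.84).

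It was below 0 for YDR222W (-4.65), YLR053C (-4.41), ALD6 (-4.13), YMC2 (-3.99), TKL1 (-3.96), YHM2 (-3.75), DUT1 (-2.51), HXK2 (-2.45), PCK1 (-2.29), ADH6 (-1.91), CDC21 (-1.62), MCD1 (-1.44) and ELO3 (-1.32). Of these, PCK1 rose in both feeds and by more in hydrolysate. Of the 27 calls 22 held in every alternative tried. The calls of CDC21 (highest limma adjusted p = 0.052, without sugar 9 h replicate 2), ELO3 (0.0559, without hydrolysate 18 h replicate 1), FMP48 (0.148, without hydrolysate 18 h replicate 1), IZH4 (0.111, without sugar 9 h replicate 2) and MCD1 (0.0761, without sugar 9 h replicate 2) did not. FMP48 stood at 1.39 without hydrolysate 9 h replicate 2 and IZH4 at 1.59 without hydrolysate 18 h replicate 1. Why these genes differ between feeds was not tested.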

How the results depend on the processing

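The number of genes called between 9 h and 18 h of the sugar feed was 3332, and 1697 with a 2-fold minimum added. It was 3934 when only the 4 arrays compared were fitted and 2690 with scaling by spike-ins. It was 3211 with the replicate number as a block and 3361 with a random block. The block on replicate number serves as a check, since the sources used here do not say whether the numbers pair the samples. The count was smaller without any 1 of the 4 sugar arrays. The hydrolysate count of 1989 was 1216 when only the arrays compared were fitted, 665 with the 2-fold minimum, 1438 with spike-ins, 1807 with the replicate block and 1122 to 2245 over arrays left out. The difference between feeds, 1548 genes, was 949 with the 2-fold minimum, 917 with spike-ins, 1329 with the replicate block and 653 to 1889 over arrays left out. Of 279 named genes called in sugar 239 kept the call in every alternative that could be run for them (at most 21), 40 lost it in at least 1 and 0 reversed. Size of change or a call in these data chose many of these genes, so the count does not describe all called genes. Among values that were not called, JEN1 reversed to -0.0045 with the gene length trend removed. The difference between feeds, not called for 4 more genes, changed sign over single arrays left out for PCL1 (-1.1915 to 0.112), PUT1 (-0.4666 to 0.2566, and 0.2314 and 0.0742 without other arrays), SCW10 (-0.5252 to 0.6509, with -0.0888 and -0.0099 without either of 2 hydrolysate arrays) and TOS6 (-0.0918 to 1.1023), and for PUT1 also with spike-ins (0.1004). The cause was not tested, except that leaving out an array or fitting fewer arrays changes the number of arrays behind the spread. With 2 arrays a group the replicate spread is poorly known, 107 genes were below background on all 4 sugar arrays, and a gene's own rise in RNA cannot be told apart from a change in the RNA of all genes after RMA. A scan of the gene promoters was not run.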

Other observations

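Genes for metals changed in the sugar feed between 9 h and 18 h. Of 36 iron uptake genes 18 were higher and 6 lower (50% and 16.7%, against 31.9% and 27.0% of all genes). Their median was 0.51, and 11 were higher with scaling by spike-ins. LSO1, a small gene induced by iron shortage, read 6.70 and 7.04 at 9 h and 9.24 and 9.03 at 18 h (change 2.27), and ARN2, a transporter of iron bound to siderophores, rose by 1.57. FET3, the multicopper oxidase of high-affinity iron uptake, fell by 1.94. ISU1 and ISU2, paired scaffolds of iron-sulfur cluster assembly, moved apart, by 1.55 and -1.77. Zinc and copper genes had 11 of 23 higher and 3 lower (47.8% and 13.0%, against the same shares of all genes). IZH4, a membrane protein of zinc homeostasis (YOL101C, chromosome XV, 126982 to 127920), read 8.90 and 8.86 at 9 h and 12.60 and 12.71 at 18 h (change 3.78), and CRS5, a copper metallothionein, rose by 2.32. The zinc-responsive gene ZPS1 fell by 2.10.

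Phosphate genes had 10 of 26 higher and 4 lower (38.5% and 15.4%, against 31.9% and 27.0% of all genes). SPL2, a regulator of phosphate transport, read 6.87 and 7.18 at 9 h and 9.07 and 9.04 at 18 h (change 2.04), and PHO89, a phosphate symporter, rose by 1.55. PHO90, a low-affinity transporter, fell by 1.83. In flocculation and filamentous growth 7 of 16 genes were higher (43.75%, against 31.9% of all genes). They included FLO11, the main cell surface flocculin of invasive growth (8.15 and 8.06 at 9 h and 9.86 and 9.74 at 18 h, change 1.70). NRG2, a repressor gene, fell by 2.85. Among genes for folding in the endoplasmic reticulum 12 of 28 were lower and 6 higher (42.9% and 21.4%, against 27.0% and 31.9% of all genes). JEM1, a chaperone partner of Kar2, fell by 2.45, whereas HRD1, the ubiquitin ligase that removes misfolded proteins there, rose by 1.73. Peroxisome and beta-oxidation genes had 16 of 36 higher and 3 lower (44.4% and 8.3%, against 31.9% and 27.0% of all genes). The lower count was smaller without sugar 9 h replicate 2. PEX18, of peroxisomal import, stood at 1.84 and PEX3, of peroxisomal membrane assembly, at 1.57. Osmotic and glycerol genes included CIN5, a stress activator gene (2.42), and DAK2, a dihydroxyacetone kinase gene (2.07), both higher, while HOG1, the osmotic stress kinase gene, fell by 1.20. Among genes without a list, YOR019W, of unknown function (8.82 and 8.73 at 9 h and 12.52 and 12.55 at 18 h, change 3.76), and BOP2, also of unknown function (8.49 and 8.62 at 9 h and 11.90 and 12.00 at 18 h, change 3.40), were among the 15 largest rises.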
